A study of Spermophilus dauricus with 30 samples.

Results

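The 50 transcripts with the largest counts in skeletal muscle of Daurian ground squirrels (Spermophilus dauricus), a hibernator, were followed through the yearly cycle. They were chosen by level alone. Counts were divided by median-of-ratios size factors computed over all 30 libraries, and the 50 identifiers of highest mean were kept, out of 27394 identifiers in the table, of which 23087 had a count in any library. The soleus (SOL), a muscle that holds posture, and the extensor digitorum longus (EDL), which extends the toes, were each sampled in 5 states with 3 libraries per muscle and state. The states were summer active (SA), pre-hibernation (PRE), hibernation (HIB), interbout arousal (IBA, the short return to wakefulness between torpor bouts) and post-hibernation (POST). All animals were labelled wild type, and the labels gave neither age nor which animal each library came from, so the p-values below measure the spread between these libraries, which may be technical in part.

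As background, muscle puts an unusually large part of its messenger RNA into few genes. In mammals the most abundant muscle transcripts typically encode the contractile proteins of the sarcomere, the enzymes of energy supply and the proteins that store and release calcium. Slow and fast fibres use different members of the same protein families for these tasks, and a soleus is usually rich in slow fibres and an EDL in fast ones. During torpor a hibernator's muscle is idle for long periods, yet it is known to waste little. None of the 50 identifiers carried a gene name in the files, all 50 being plain numbers, so which of these proteins each one encodes is not stated here, and the muscle labels were not checked against marker genes. A larger count can come from a longer transcript as well as from more copies. Ranks, shares and the words most abundant therefore refer to counts and not to copies, and the tests compared libraries and not identifiers.

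Library totals lay between 31442362 and 41972200 counts. The 50 members together took from 21.8% to 37.3% of a library's counts, with a median of 29.97%. In SOL the members' share averaged 25.4% ± 3.21 (SA), 29.9% ± 1.25 (PRE), 28.9% ± 2.82 (HIB), 25.6% ± 1.62 (IBA) and 28.5% ± 5.45 (POST; SD, n = 3 each). In EDL it averaged 31.9% ± 3.92 (SA), 32.8% ± 0.570 (PRE), 30.7% ± 1.95 (HIB), 30.8% ± 3.15 (IBA) and 33.8% ± 5.89 (POST; SD, n = 3 each). The spread within most states was as wide as the distance between the state means. Across the muscles the share ran from 21.8% to 32.7% in SOL libraries, against 27.0% to 37.3% in EDL libraries. It was larger in EDL than in the SOL library of the same state and number in 14 of 15 pairs. These shares follow from the choice of members by level and carry no test.

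**Figure D1:**
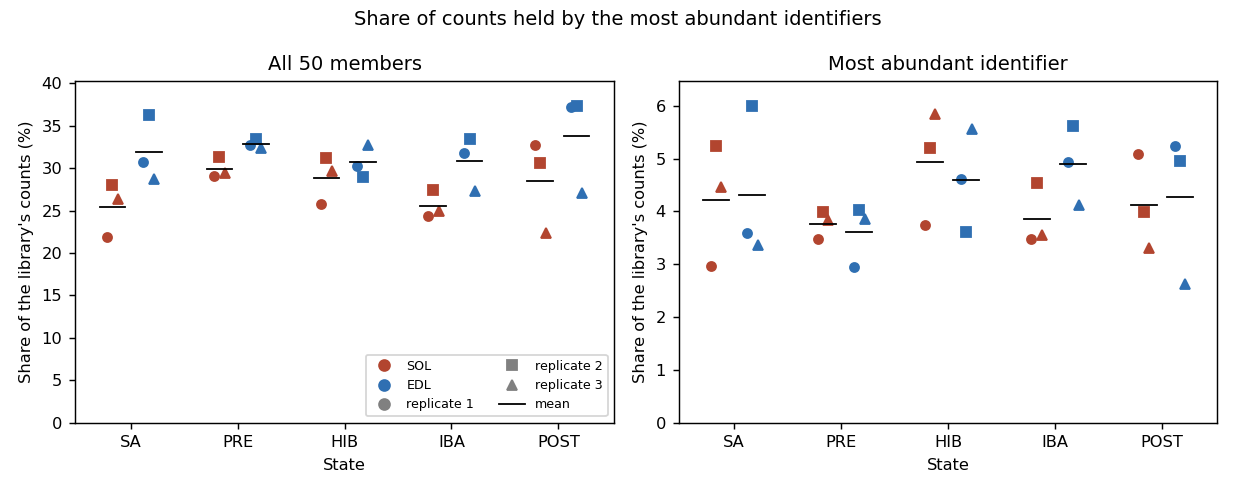
Share of each library's counts in percent, for all 50 members (left) and for the most abundant identifier (right), by state, with SOL libraries left of EDL libraries; each point is 1 library and each bar the mean of 3. The members' share spans 21.8% to 37.3% and that of the most abundant identifier spans 2.63% to 5.99%, with wide spread within SA and POST.

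The most abundant identifier had the highest count in 30 of 30 libraries, in both muscles and in all 5 states. It alone took from 2.63% to 5.99% of a library's counts, with a median of 4.01%, and its mean of 1544524 normalised counts stood above the 645209 of the next member. In CPM (counts scaled to a common library size with TMM factors, the level used from here on), the values for SOL were, for the SA libraries 25066, 46197 and 39971, the PRE libraries 35130.0, 42669 and 41991, the HIB libraries 35078, 53309 and 56875, the IBA libraries 29564, 39868 and 31998 and the POST libraries 67562, 41097 and 26286. The values for EDL were, for the SA libraries 36489, 68948 and 32886, the PRE libraries 31806, 43845 and 44606, the HIB libraries 48380.4, 33947 and 55517, the IBA libraries 49780.5, 55885 and 39382 and the POST libraries 61615, 59082 and 23925. In each of the 10 comparisons of states described below the groups overlapped, and the 3 libraries of SA and of POST were as far apart as libraries of different states. The level averaged 40844 ± 11629.7 CPM in SOL and 45739.6 ± 12805 CPM in EDL (SD, n = 15 each), a log2 difference of -0.17 ± 0.17 (SE) at an adjusted p of 0.482 (edgeR, quasi-likelihood). Neither HIB against SA (log2 change 0.37 ± 0.35 in SOL with adjusted p 0.546, and 0.01 ± 0.37 in EDL with adjusted p 0.990) nor any other comparison of states passed the threshold of 0.05 for it, the lowest adjusted p being 0.546.

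The next members by rank stood well apart in behaviour. Identifier 101971554, the second by mean, stayed between rank 3 and rank 6 in every one of the 10 groups and was lower in SOL, at 13853 ± 4235 CPM, against 22298 ± 5968 CPM in EDL (SD, n = 15 each). Identifier 101962754, the third, owed its rank to EDL, where it reached rank 2, whereas in SOL it went as low as rank 65. Identifier 101955661, the fourth, held ranks 3 to 12, and its level was 15538 ± 4169.6 CPM in SOL and 12172 ± 2493 CPM in EDL (SD, n = 15 each). Identifier 101963002, the fifth, ranged from rank 4 to rank 18. Ranks 2 to 10 together took from 6.59% to 13.6% of counts, and ranks 11 to 50 took from 11.5% to 19.5%. The boundary of the list was not a gap, since ranks 49 and 50 (101973026 and 101977519) had means of 75535 and 74667 normalised counts, and the first identifiers left out, 101962757 and 101966570, had 73771 and 68154.

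Most members of a list chosen on the mean of both muscles fell into 3 kinds. In 22 of 50 cases the identifier was among the 50 highest of all 10 groups, though its rank could differ between them. Another 9 were among the 50 highest in every SOL group and in no EDL group, and 10 were among the 50 highest in every EDL group and in no SOL group. The remaining 9 met none of these conditions. Between 35 and 41 of the members were among a single library's own 50 highest. The coefficient of variation over the 30 libraries (SD divided by mean) exceeded 1 for 12 members and was under 0.25 for 5.

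The steadiest members were 101972226, 101973445 and 101964660, with coefficients of variation of 0.173, 0.218 and 0.231. The lowest, median and highest levels of 101972226 were 1513, 2042 and 2930.0 CPM in SOL, against 1862, 2456 and 2976 CPM in EDL. The most variable were 101973267, 101976734 and 101977713, at 1.84, 1.35 and 1.17. For these 3 the muscles were far apart. Identifier 101973267 had a lowest, median and highest level of 1.63, 13.5 and 271 CPM in SOL, against 1019, 3816 and 26377 CPM in EDL. Within EDL it was also uneven, with 26377, 24694 and 6725 CPM in the 3 POST libraries and 2197, 13829.6 and 1019 CPM in the 3 IBA libraries.

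**Figure D2:**
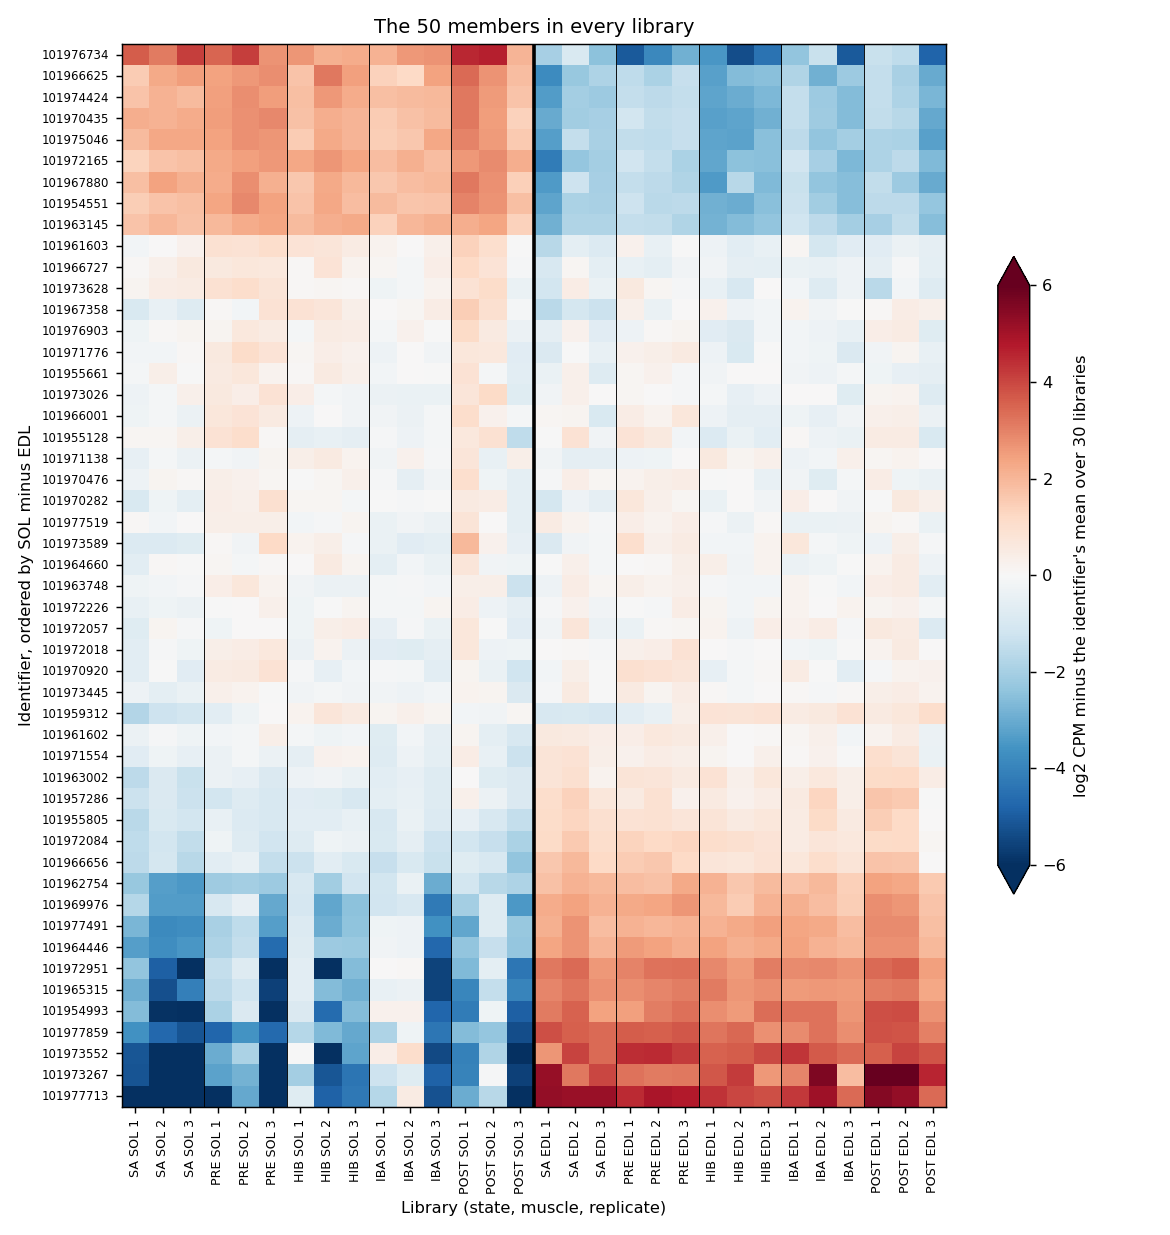
Level of each of the 50 members (rows, ordered from the largest SOL excess at the top to the largest EDL excess at the bottom) in each of 30 libraries (columns, SOL left of EDL, states in order), as log2 CPM minus the identifier's mean over the 30 libraries. The top 9 rows are above their mean (red) in every SOL library and below it (blue) in every EDL library. The bottom 11 rows are above it in every EDL library and below it in SOL except for 7 of 165 values, all in IBA SOL 1 or IBA SOL 2.

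The muscle was the main axis of difference among the members. Averaged over the 5 states, 36 of 50 differed between SOL and EDL by edgeR's quasi-likelihood test at an adjusted p of 0.05, with 16 higher in SOL and 20 lower in SOL. Over all 16946 identifiers tested, 28.9% differed, 14.4% in each direction. A difference of over 2-fold was called for 26 members, against 7.60% of all identifiers. Over 10-fold there were 9 members higher in SOL and 11 lower in SOL, against 1.26% of all identifiers. An identifier abundant in 1 muscle alone can enter the list through that muscle's 15 libraries, so the rule itself favours large muscle differences and these counts are not a property found independently of it. Of the variation in log2 CPM, the muscle accounted for a median of 68.9% among the members and the state for 4.97%. Over all identifiers tested the medians were 6.21% and 27.8%. The rule favours a large part for the muscle in the same way, so this contrast is not independent of it either. Of the variation left after the muscle, the state took a median of 28.4% among the members and 32.7% over all identifiers. In tissue samples, fewer fibres of a type and less RNA per fibre cannot be told apart.

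**Figure D3:**
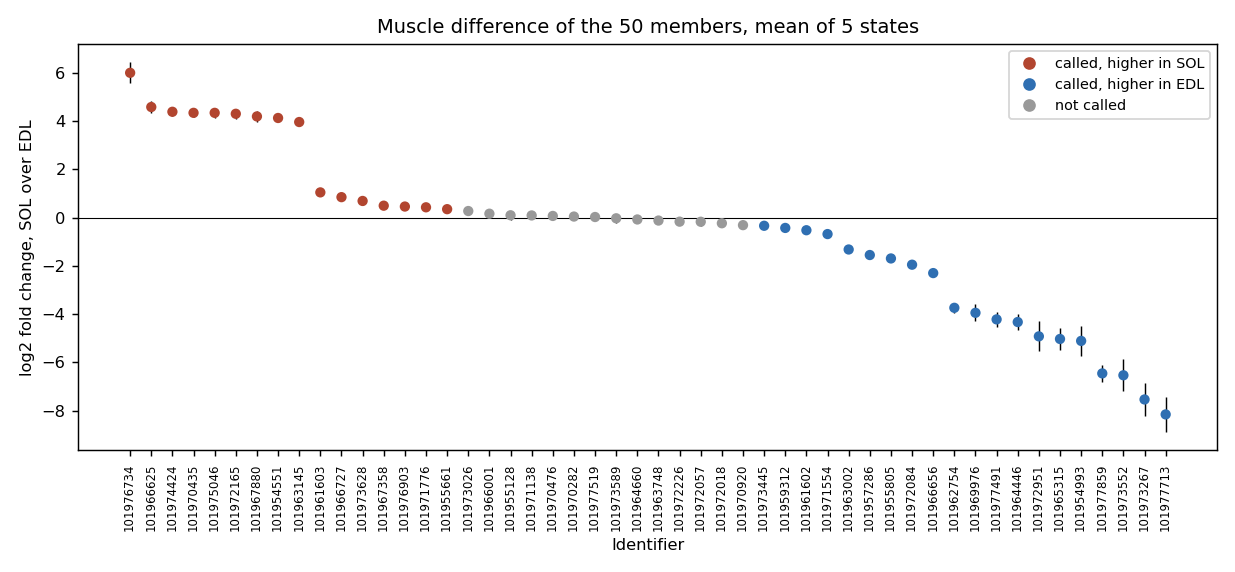
Log2 fold change of SOL over EDL, mean of 5 states, for each of the 50 members (vertical axis) in order of size (horizontal axis), with bars of 1 SE; red marks members called higher in SOL, blue those called higher in EDL and grey those not called. The values fall in steps, with 9 members from 3.96 upward, none between 1.05 and 3.96, and 11 between -8.16 and -3.74.

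The 9 members over 10-fold higher in SOL were 101976734, 101966625, 101974424, 101970435, 101975046, 101972165, 101967880, 101954551 and 101963145. For each of them the lowest of 15 SOL libraries lay above the highest of 15 EDL libraries. Together they took a mean of 9.04% of counts in SOL and 0.416% in EDL. Lowest, median and highest levels of 101976734 were 1879.5, 2986 and 11741 CPM in SOL, against 11.4, 61.9 and 246 CPM in EDL. Its log2 difference of 6.002 ± 0.43 (SE) was 64.1-fold, with an adjusted p of 7.43e-11. Of the 9, it varied most within a muscle, its highest EDL library exceeding its lowest by 21.6-fold.

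The other 8 lay close together, between 15.6-fold and 24.0-fold. Identifier 101966625 had lowest, median and highest levels of 7871, 18386 and 36145 CPM in SOL, against 246, 748 and 1318 CPM in EDL. Its log2 difference was 4.58 ± 0.25 (SE, adjusted p 4.89e-13). Identifier 101974424 had 4454, 5692 and 12098 CPM in SOL, against 132, 301 and 508 CPM in EDL, with a log2 difference of 4.39 ± 0.18 (SE, adjusted p 4.55e-15). Both sets of libraries were separated by a wide empty interval. Identifier 101970435 had 3748, 6530.3 and 13051 CPM in SOL, against 151, 339.6 and 679.9 CPM in EDL, a log2 difference of 4.34 ± 0.19 (SE, adjusted p 1.30e-14). Identifier 101975046 had 6596, 11801 and 18826 CPM in SOL, against 243, 619.9 and 923 CPM in EDL, a log2 difference of 4.34 ± 0.21 (SE, adjusted p 4.14e-14). Identifier 101972165 was the most abundant of the 9 in counts, at rank 7 over all libraries and rank 2 in its best group, with 10687, 20803 and 30417 CPM in SOL, against 229, 1045 and 1944 CPM in EDL. The remaining 3, 101967880, 101954551 and 101963145, had log2 differences of 4.19, 4.13 and 3.96.

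The 11 members over 10-fold lower in SOL were 101977713, 101973267, 101973552, 101977859, 101954993, 101965315, 101972951, 101964446, 101977491, 101969976 and 101962754. For all 11 the highest SOL library lay below the lowest EDL library. They took a mean of 0.587% of counts in SOL and 11.5% in EDL. Identifier 101977713 had the largest difference of all members. Its lowest, median and highest levels were 0.366, 6.51 and 263 CPM in SOL, against 1973, 5088 and 8630.2 CPM in EDL, and its log2 difference of -8.16 ± 0.73 had an adjusted p of 3.84e-09. Its lowest count, 18 reads, was in POST SOL 3, so it was detected in every library. Identifier 101973267, with the levels given above, had a log2 difference of -7.54 ± 0.69 (SE, adjusted p 5.45e-09).

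Identifier 101973552, sixth by mean level, had lowest, median and highest levels of 6.98, 89.4 and 3086 CPM in SOL, against 9159, 19762 and 32159 CPM in EDL. Its log2 difference was -6.53 ± 0.67 (SE, adjusted p 4.12e-08). Identifier 101977859 had 15.8, 52.6 and 529 CPM in SOL, against 4271, 6903 and 9179.6 CPM in EDL, and a log2 difference of -6.46 ± 0.37 (SE, adjusted p 1.15e-12). The SOL libraries of 101977859 lay closer together than those of 101973552, and its SE was smaller. Identifier 101954993 had 9.99, 178 and 1294 CPM in SOL, against 5786, 9511 and 16459 CPM in EDL, and a log2 difference of -5.11 ± 0.63 (SE, adjusted p 7.99e-07). The other 6 had log2 differences between -5.03 and -3.74. The smallest belonged to 101962754, which kept a level of 719.6, 1942 and 5913 CPM (lowest, median and highest) in SOL, against 21088, 29548 and 42144 CPM in EDL.

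Smaller muscle differences were called for 16 further members. Of these, 7 were higher in SOL by 1.27-fold to 2.06-fold, and the SOL and EDL libraries of all 7 overlapped. They were 101961603, with 4994 ± 1637 CPM in SOL and 2392 ± 733 CPM in EDL (SD, n = 15 each), and 101966727, 101973628, 101967358, 101976903, 101971776 and 101955661. The weakest call among them was 101955661, at an adjusted p of 0.0481. The other 9 were lower in SOL by 1.26-fold to 4.92-fold. For 4 of these 9 the muscles did not overlap. Identifier 101966656 had lowest, median and highest levels of 464, 1146 and 1720.0 CPM in SOL, against 2402, 5367 and 8996 CPM in EDL. Identifier 101972084 had 1569, 2741 and 4941 CPM in SOL, against 6339.9, 12279 and 17133 CPM in EDL. Identifiers 101955805 and 101963002 also lay apart, with log2 differences of -1.69 ± 0.13 and -1.32 ± 0.12 (SE). The muscles overlapped for 101957286, 101971554, 101961602, 101959312 and 101973445. In all, the muscles did not overlap for 24 members, 9 higher and 15 lower in SOL, against 1.51% of all identifiers (0.602% higher and 0.909% lower).

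No muscle difference was called for 14 members, among them the most abundant identifier. Their log2 differences lay between -0.31 and 0.27, with adjusted p from 0.0880 upward. The other 13 were 101970920, 101972018, 101972226, 101963748, 101964660, 101973589, 101977519, 101970282, 101970476, 101971138, 101955128, 101966001 and 101973026. Together the 14 took a mean of 9.02% of counts in SOL and 8.98% in EDL. Their highest library exceeded their lowest by 1.94-fold to 6.93-fold in SOL and by 1.60-fold to 3.56-fold in EDL. For 101964660 the lowest, median and highest levels were 2421, 3771 and 6252 CPM in SOL, against 2957, 3872 and 5347 CPM in EDL. Identifier 101973589 had the widest range of the 14 in each muscle, with 1557, 2404 and 10793 CPM in SOL, against 1552, 2558 and 5529 CPM in EDL. Its highest SOL library was POST SOL 1, and its next was PRE SOL 3 at 6331 CPM. With SOL and EDL of the same state and number treated as a pair, 37 members differed, the one gained being 101970920, against 40.7% of all identifiers with that block.

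In summer-active animals alone, with 3 libraries per muscle, 25 members differed between SOL and EDL, 9 higher and 16 lower in SOL, against 5.30% of all identifiers (1.92% higher and 3.38% lower). With the replicate block 28 differed, the 3 gained being 101971554, 101961602 and 101961603, against 13.1% of all identifiers with that block. The 9 higher ones were the 9 named above. Identifier 101976734 had 5667, 3988 and 8010.0 CPM in SA SOL libraries, against 116, 246 and 82.3 CPM in SA EDL libraries. Its log2 difference there was 5.32 ± 0.93 (SE, adjusted p 6.40e-04). At the other end, 101977713 had 2.38, 0.898 and 0.482 CPM in SA SOL libraries, against 7397, 6805 and 6976 CPM in SA EDL libraries, a log2 difference of -12.46 ± 1.91 (SE, adjusted p 1.39e-04). The 11 members with the large EDL excess were also all called in SA, with log2 differences from -12.46 to -4.83.

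Within SOL, the 11 members with the large EDL excess moved together from library to library. Their summed share was 0.366%, 0.141% and 0.134% (SA), 0.460%, 0.589% and 0.201% (PRE), 1.11%, 0.281% and 0.535% (HIB), 1.45%, 1.88% and 0.157% (IBA), and 0.369%, 0.745% and 0.380% (POST). In EDL it ran from 8.53% to 14.8%. HIB SOL 1, IBA SOL 1, IBA SOL 2 and POST SOL 2 were among the 6 highest SOL libraries for 11 of 11 members. PRE SOL 2 was among them for 9 members and PRE SOL 1 for 8. The 3 SA libraries, PRE SOL 3, IBA SOL 3 and POST SOL 3 were among them for none. PRE, HIB and IBA each held a library within the range of the SA libraries, and the lowest POST library, at 0.369%, stood just above the highest SA library, at 0.366%.

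The spread within SOL was widest for 101977713, the member with the largest muscle difference, and next widest for 101973552. It did not follow the size of the muscle difference throughout. The highest SOL library exceeded the lowest by 33.6-fold for 101977859 (log2 difference -6.46) and by 140-fold for 101972951 (-4.92). The CPM of 101977713 in SOL were, for the SA libraries 2.38, 0.898 and 0.482, the PRE libraries 1.09, 22.4 and 2.59, the HIB libraries 115, 6.51 and 9.51, the IBA libraries 57.9, 263 and 4.95 and the POST libraries 23.9, 58.9 and 0.366. Those of 101973552 in SOL were, for the SA libraries 41.5, 6.98 and 8.29, the PRE libraries 183, 392 and 18.8, the HIB libraries 1457, 20.9 and 162, the IBA libraries 1916, 3086 and 34.0 and the POST libraries 89.4, 422 and 15.8. The same libraries were high for both. The highest SOL library exceeded the lowest by 8.22-fold to 718-fold over the 11 members, with a median of 38.0-fold, whereas in EDL the median was 2.16-fold. The 9 members with the large SOL excess had a median of 2.85-fold in SOL and 4.44-fold in EDL. Within EDL these 9 also tended to be high in the same libraries. IBA EDL 1 was among the 6 highest EDL libraries for 9 of 9, and PRE EDL 1, PRE EDL 2 and POST EDL 1 for 8. HIB EDL 1, HIB EDL 3, IBA EDL 3 and POST EDL 3 were among them for 0.

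**Figure D4:**
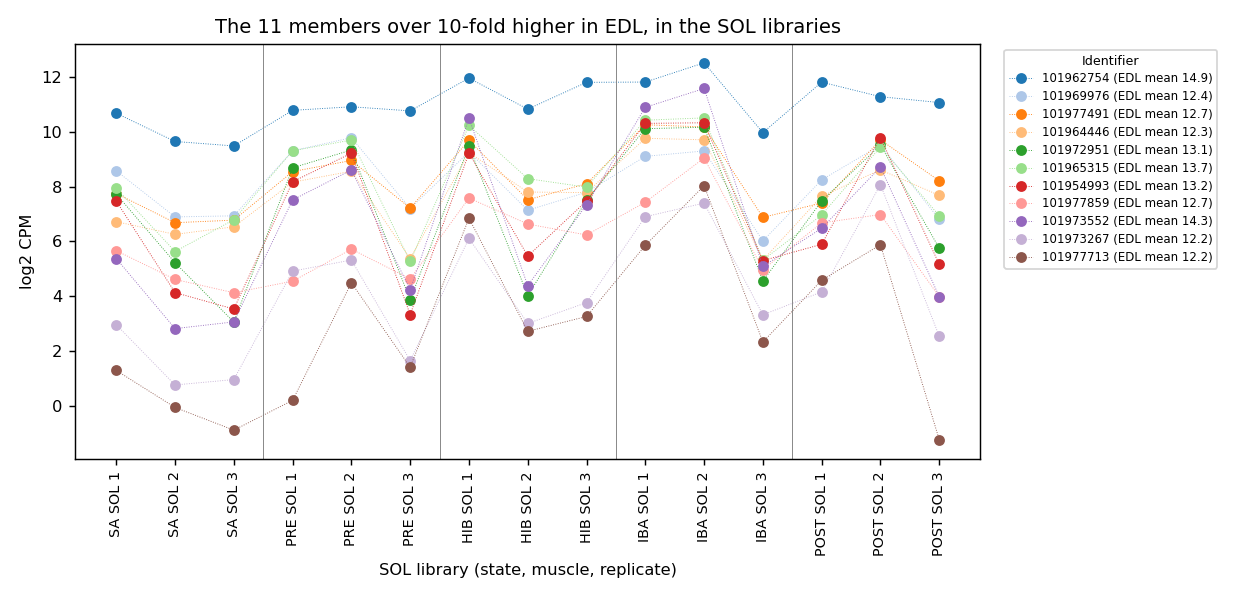
Level (log2 CPM) of the 11 members over 10-fold higher in EDL, in each of the 15 SOL libraries, grouped by state; each point is 1 library and dotted lines only join the points of 1 identifier, with each identifier's EDL mean in the legend. HIB SOL 1, IBA SOL 1, IBA SOL 2 and POST SOL 2 are among the 6 highest for all 11, and the 3 SA libraries for none.

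The size of the muscle difference also varied over the states, as a description of group means. For the 11 members with the large EDL excess, the median log2 difference of SOL from EDL was -6.77 (SA), -4.83 (PRE), -4.70 (HIB), -3.40 (IBA) and -5.32 (POST). It was largest in SA and smallest in IBA for all 11. These members moved together between SOL libraries, so they do not count as 11 separate observations. IBA SOL 1 and IBA SOL 2 were among the 6 highest SOL libraries for 11 of 11, and IBA SOL 3 for 0. For the 9 members with the large SOL excess the medians were 4.22 (SA), 4.02 (PRE), 5.10 (HIB), 3.81 (IBA) and 4.51 (POST). The difference was smallest in IBA for 9 of 9 and largest in HIB for 7. These 9 are not separate observations either. IBA EDL 1 was among the 6 highest EDL libraries for 9 of them, IBA EDL 2 for 2 and IBA EDL 3 for 0. The sign of the difference was the same in all 5 states for all 20. A test of whether the muscles changed unequally between states gave no call for any member in any of 5 contrasts of states, and 0 of 16946 identifiers in each. These were HIB, POST and PRE each against SA, HIB against PRE, and IBA against HIB.

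Fewer members were called for changes between states than for muscle differences, but the counts are not alike. Each comparison of states set 3 libraries against 3, whereas the muscle comparison over 5 states set 15 against 15. In SA alone, with 3 libraries against 3, 25 members differed between the muscles, and the choice of members favours such differences. Across the 10 comparisons of a pair of states (5 in each muscle), 4 members were called at least once and 46 never, against 13.2% of all 16735 identifiers tested in either muscle that were called at least once. The 4 were 101959312, 101967358, 101971138 and 101970282, at ranks 45, 40, 39 and 15, and all their called changes were increases relative to SA. Comparisons with SA share the 3 SA libraries of their muscle. A test for any difference among the 5 states called 1 member in SOL (101959312), against 0.687% of all 16443 identifiers tested there, and 2 in EDL (101959312 and 101967358), against 3.85% of 16299.

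**Figure D5:**
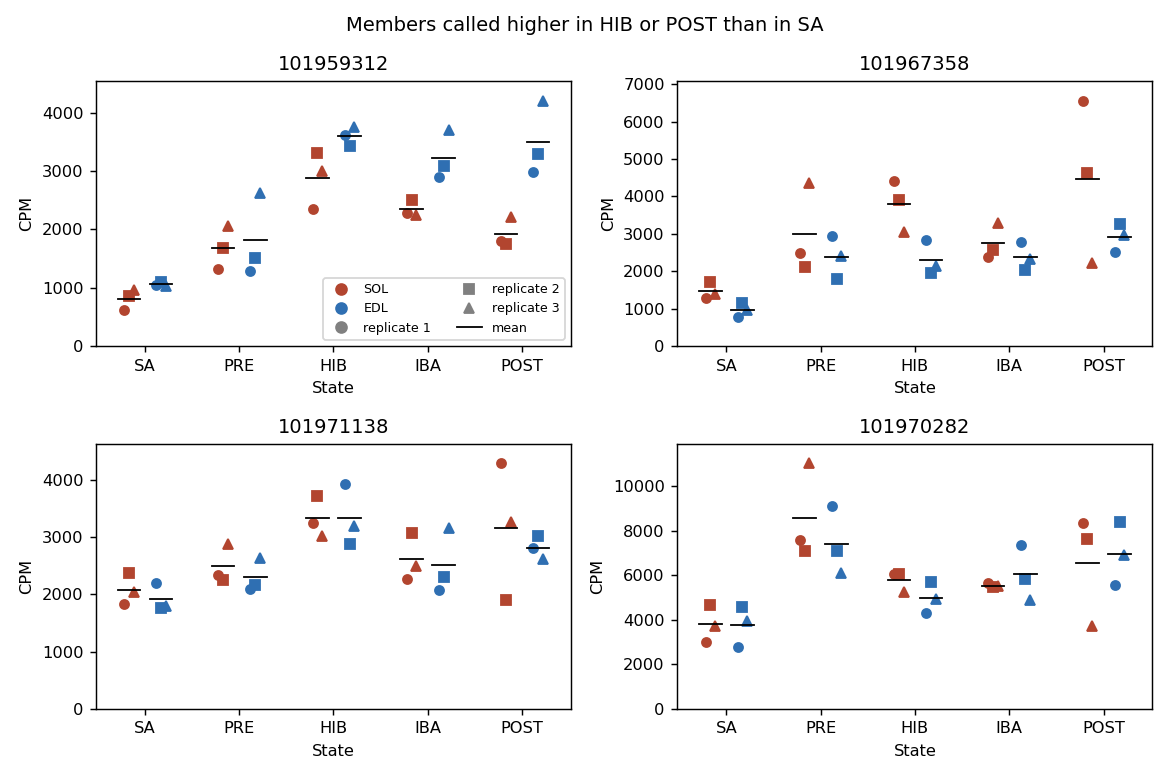
Level (CPM) of the 4 members called higher in HIB or POST than in SA, by state, with SOL libraries left of EDL libraries; each point is 1 library and each bar the mean of 3. The SA libraries of 101959312 lie below all HIB and POST libraries of their muscle, whereas the POST SOL libraries of 101971138 and 101970282 spread over the SA level.

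Identifier 101959312 was higher in hibernation than in summer in both muscles. In SOL it had 2343, 3318 and 2999 CPM in HIB, against 612, 857 and 955 CPM in SA, a log2 change of 1.82 ± 0.24 (SE, adjusted p 0.0101, edgeR). In EDL it had 3617, 3439.9 and 3755 CPM in HIB, against 1049, 1096 and 1025 CPM in SA, a log2 change of 1.79 ± 0.24 (SE, adjusted p 0.00262). Every HIB library lay above every SA library of its muscle, and the 2 muscles changed by nearly the same amount. The increase was called with each of the 6 libraries of either comparison left out in turn. After hibernation it was still above SA, with 1802, 1753 and 2215 CPM in POST, against 612, 857 and 955 CPM in SA, in SOL (log2 change 1.23 ± 0.23 (SE), adjusted p 0.0421). In EDL it had 2978, 3290.1 and 4209 CPM in POST, against 1049, 1096 and 1025 CPM in SA (log2 change 1.74 ± 0.24 (SE), adjusted p 0.00309). The POST increase in SOL lost its call without SA SOL 1, SA SOL 2, SA SOL 3 or POST SOL 1, at adjusted p 0.115, 0.0970, 0.118 and 0.0819, and when only the SA and POST libraries were fitted, at adjusted p 0.330. In PRE every library stood between those of SA and HIB of its muscle, with 1318, 1679 and 2054 CPM in SOL and 1296, 1514 and 2630.1 CPM in EDL, and in IBA it had 2286, 2502 and 2248 CPM in SOL and 2906, 3086 and 3709.9 CPM in EDL. By edgeR its change of HIB from PRE was not called in either muscle, with an adjusted p of 0.194 in SOL. DESeq2 called that change in both, at adjusted p 0.0278 in SOL and 0.00221 in EDL. The rank of 101959312 within a group ran from 95 to 23.

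Identifier 101967358 was higher in HIB than in SA in EDL, with 2834, 1940.0 and 2144 CPM in HIB, against 786, 1138 and 959 CPM in SA. The groups did not overlap, and the log2 change was 1.28 ± 0.23 (SE, adjusted p 0.0119), but without SA EDL 1 or SA EDL 3 the adjusted p was 0.0530 or 0.0517. In SOL it had 4412, 3910.0 and 3051 CPM in HIB, against 1275, 1722 and 1384 CPM in SA, a log2 change of 1.36 ± 0.36 (SE) with an adjusted p of 0.0506, just outside the threshold. The SOL change passed when only the HIB and SA libraries were fitted, at an adjusted p of 0.0205. After hibernation it was higher than in SA in EDL, with 2520.0, 3257 and 2969 CPM in POST, against 786, 1138 and 959 CPM in SA, a log2 change of 1.62 ± 0.23 (SE, adjusted p 0.00320), and this held with each of the 6 libraries left out. In SOL, POST libraries had 6557, 4614 and 2214 CPM, against 1275, 1722 and 1384 CPM in SA, with an adjusted p of 0.0563. The POST SOL libraries were widely spread for it. Without POST SOL 3 the adjusted p in SOL was 0.00849.

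The other called changes were smaller, and their calls did not hold when some or any of the libraries were left out. Identifier 101971138 had 3927, 2873 and 3199.5 CPM in HIB, against 2199, 1757 and 1799 CPM in SA, in EDL, a log2 change of 0.81 ± 0.20 (SE, adjusted p 0.0346). The groups did not overlap, yet leaving out any 1 of the 6 libraries put the adjusted p between 0.0546 and 0.120. The log2 change then lay between 0.67 and 0.92. In SOL it had 3244, 3716 and 3023 CPM in HIB, against 1824, 2369 and 2047 CPM in SA (adjusted p 0.145). Identifier 101970282 had 5571, 8397 and 6936 CPM in POST, against 2765, 4581 and 3949 CPM in SA, in EDL, a log2 change of 0.91 ± 0.25 (SE, adjusted p 0.0378). Without SA EDL 1, SA EDL 3, POST EDL 2 or POST EDL 3 the adjusted p was 0.132, 0.105, 0.116 or 0.0695. With each of the 6 libraries left out in turn, the log2 change lay between 0.73 and 1.07. In SOL it had 8334, 7619 and 3723 CPM in POST, against 3008, 4671 and 3723 CPM in SA, and POST SOL 3 lay inside the SA range. Its highest mean level in each muscle was in PRE, at 8561 ± 2157 CPM in SOL and 7427 ± 1542 CPM in EDL (SD, n = 3 each).

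As a group, the members in hibernation against summer gave 1 call in SOL, against 3.59% of all identifiers, and 3 in EDL, against 4.79%. Members that move together between libraries are not separate observations in the counts of positive changes, here and below. In SOL 42 of 50 had a positive log2 change of HIB from SA, against 48.9% of all identifiers tested. The median was 0.38, against -0.02 over all. In EDL 14 of 50 had a positive one, against 50.4% of all, and the median was -0.24, against 0.00. That rested on 1 library, since without SA EDL 2 there were 25 positive changes and the median was -0.0021. The difference between the muscles in this change had a median of 0.63 and was positive for 48 members. Over all identifiers its median was 0.03, with 52.5% positive. By edgeR 0 members and 0.00% of all identifiers passed for that difference. At an unadjusted p under 0.05 there were 11 members, against 4.56% of all identifiers, and DESeq2 called 0. Under scaling to library totals the members' medians were 0.23 in SOL, -0.17 in EDL and 0.39 for the difference between the muscles. Over all identifiers they were then -0.16, 0.06 and -0.21, so both moved in the same direction. Under that scaling 37 members had a positive change in SOL, and the difference between the muscles was positive for 38.

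Among members without a call, 101976734 and 101955128 were singled out after their values were seen, for being lower in HIB in both muscles. They were not the only such members. Of the 9 with the large SOL excess, 0 had a positive log2 change of HIB from SA in EDL and 5 had one in SOL. Identifier 101976734, the one with the largest SOL excess, had 2908, 2003 and 2148 CPM in HIB, against 5667, 3988 and 8010.0 CPM in SA, in SOL, a log2 change of -1.34 ± 0.53 (SE, adjusted p 0.145). In EDL it had 41.2, 11.4 and 20.9 CPM in HIB, against 116, 246 and 82.3 CPM in SA, a log2 change of -2.58 ± 0.92 (SE, adjusted p 0.113). In neither muscle did the groups overlap, but neither change passed. In PRE it had 5104, 8244 and 2970.0 CPM in SOL and 13.8, 31.1 and 61.9 CPM in EDL. In EDL 3 of 3 PRE libraries lay below the lowest SA library, whereas in SOL only PRE SOL 3 did. Identifier 101955128 had 1371, 1453 and 1353 CPM in HIB, against 2117, 2133 and 2522 CPM in SA, in SOL (adjusted p 0.321), and 1122, 1478 and 1279 CPM in HIB, against 1929.5, 3606 and 1679 CPM in SA, in EDL (adjusted p 0.173).

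In POST against SA the members gave 1 call in SOL, against 0.870% of all identifiers, and 3 in EDL, against 8.65%. Positive log2 changes were seen for 47 of 50 in SOL, with a median of 0.56, and for 33 of 50 in EDL, with a median of 0.17. Of all identifiers, 51.5% were positive in SOL and 51.4% in EDL, with a median of 0.02 in each muscle. The members' medians depended on single libraries. In SOL the median was 0.18, with 34 positive, without POST SOL 1 and 0.88, with 50 positive, without POST SOL 3. With library totals it was 0.28, against -0.16 over all identifiers, with 33 members positive. In EDL the members' median moved by over 1.5 times without any 1 of the 6 libraries. It lay between 0.04 without POST EDL 2 and 0.40 without POST EDL 3. With library totals it was 0.07, against -0.04 over all identifiers. The count of calls in SOL also rested on single libraries, being 17 without POST SOL 3 and 0 without SA SOL 1, SA SOL 2, SA SOL 3 or POST SOL 1. The shares of all identifiers called without those libraries are not given. The 3 POST SOL libraries stood far apart for these transcripts. POST SOL 1 was the highest of 15 SOL libraries for 23 members and POST SOL 3 the lowest for 23. Their members' shares were 32.7% and 22.4%, and their TMM factors, 0.753 and 1.25, were the lowest and the highest of the 30 libraries.

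In PRE against SA edgeR called 0 members in SOL, against 0.0547% of all identifiers, and 0 in EDL, against 0.00%. At an unadjusted p under 0.05 there were 15 members in each muscle, against 20.3% of all identifiers in SOL and 14.5% in EDL, and DESeq2 called 8 in SOL and 4 in EDL. The log2 change of PRE from SA was positive for 49 of 50 members in SOL, with a median of 0.59, and for 36 of 50 in EDL, with a median of 0.19. Of all identifiers, 51.3% were positive in SOL, with a median of 0.02, and 51.2% in EDL, with a median of 0.01. The EDL median was 0.33 without SA EDL 2 and 0.09 without SA EDL 3. With library totals the members' medians were 0.36 in SOL, with 41 positive, and 0.11 in EDL, with 31 positive. Over all identifiers the medians were then -0.22 in SOL and -0.08 in EDL. Of the 5 states, PRE had the highest mean level for 23 members in SOL and 25 in EDL, against 22.04% and 17.8% of all identifiers. SA had the highest mean for 0 members in SOL, against 27.5% of all identifiers. Without POST SOL 1, a library outside this comparison that enters its estimate of spread, edgeR called 8 members in SOL. Without SA EDL 2 it called 1 in EDL, 101967358. These counts without a library, and those of DESeq2, have no share of all identifiers beside them.

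In HIB against PRE edgeR called 0 members in SOL, against 0.0365% of all identifiers, and 0 in EDL, against 0.730%. At an unadjusted p under 0.05 there were 9 in SOL, against 12.8% of all identifiers, and 17 in EDL, against 19.5%, and DESeq2 called 1 and 8. In EDL the log2 change of HIB from PRE was positive for 5 of 50 members, with a median of -0.43, and in SOL for 19, with a median of -0.13. The number of positive changes in EDL was 12 without PRE EDL 3, 13 without HIB EDL 2 and 15 with library totals, with medians of -0.39, -0.33 and -0.29. In SOL the median was -0.05 without PRE SOL 2, -0.20 without PRE SOL 3 or HIB SOL 2, -0.26 without HIB SOL 1 and -0.04 with library totals. With library totals the medians over all identifiers were 0.14 in EDL and 0.10 in SOL. All 9 members with the large SOL excess were among the lower ones in EDL, with a median of -1.19. The nearest to a call was 101970435, singled out after its values were seen. It had 151, 162 and 197 CPM in HIB, against 679.9, 516 and 560.1 CPM in PRE, in EDL, a log2 change of -1.77 ± 0.39 (SE) with an adjusted p of 0.0500495. Without PRE EDL 3 another member, 101959312, was called higher in HIB in EDL, at an adjusted p of 0.0340.

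In IBA against HIB edgeR called 0 members in SOL, against 0.00% of all identifiers, and 0 in EDL, against 0.0307%. At an unadjusted p under 0.05 there was 1 member in SOL, against 6.63% of all identifiers, and there were 7 in EDL, against 10.5%, and DESeq2 called 0 in each. In EDL all 9 members with the large SOL excess had a higher mean in IBA than in HIB, with a median log2 change of 0.91. Their summed level was 6806, 4078 and 3412 CPM in the IBA EDL libraries, against 2079, 2815 and 3051 CPM in HIB. In SOL all 11 members with the large EDL excess had a higher mean in IBA than in HIB, with a median of 1.01, and the IBA SOL libraries were as uneven as given above. None of these changes was called.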

How the data were processed

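Total RNA of SOL and EDL muscle was sequenced in 30 libraries. The deposited table holds read counts per identifier, which the authors made with HISAT2 2.0.4 and HTSeq 0.9.1, per the submitters' processing notes. The genome build, annotation, strand setting and treatment of shared reads were not given in the sources used here. Each column was matched to its sample by its title. No 2 columns were identical, and replicates of 1 group differed by a chi-square of 51.6 to 396 per degree of freedom.

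The deposited counts were tested with edgeR 4.0.16 (R 4.3.3, limma 3.58.1): TMM scaling, filterByExpr with a minimum count of 10, quasi-likelihood F tests, and Benjamini-Hochberg adjustment over all identifiers tested at 0.05. Muscles were compared in 1 model of all 30 libraries, and states within each muscle's 15 libraries. Levels are CPM with TMM factors of all 30 libraries, and shares are of total counts. Fold changes come from the model and can differ from ratios of means. DESeq2 1.42.0 was an alternative, as were other scalings, no filter on low counts, the compared libraries alone, replicate blocks and leaving out each library. The procedure was tested on simulated data.

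SOL and EDL libraries of 1 state and number deviated together in 15 of 15 pairs (correlation of their deviations from group means 0.129 to 0.594, median 0.441), which is taken as pairing, from the data and not from the labels. The same number in different states of 1 muscle did not (median -0.00885).

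Members, lists and named identifiers were chosen with earlier results of these data known. Named were the most abundant identifier (101972057), the 5 members of highest mean, ranks 49 to 52, the 3 largest and 3 smallest coefficients of variation, the 5 largest called muscle differences without overlap in each direction, and up to 4 called changes of HIB or POST from SA without overlap in each direction. Gene lists by symbol were not used, since the files pair no identifier with a name.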

Additional observations from a re-analysis of the deposited data

How the results depend on the processing

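The list itself depended in part on how it was made: 50 of the 50 members remained when ranked by mean CPM, 46 by the median, 37 by mean log2 level, 38 and 41 from SOL or EDL libraries alone, and 45 to 48 from the libraries of 1 state. The counts of muscle differences stayed at 35 to 38 members over the 5 states and 25 to 29 in SA under every alternative, left-out libraries included; with the replicate block that pairs SOL and EDL of 1 number they were 37 and 28. Scaling to library totals moved the median of all identifiers by -0.24 to 0.26 (log2), and by over 0.1 in 8 of 13 comparisons; the members' median change kept its sign in every comparison of states. The members' median log2 difference of SOL from EDL over 5 states, -0.10, was 0.02 under that scaling. The median over all identifiers, 0.04, was then 0.17.

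Counts of called state changes were far less stable, and the cause was not tested. Shares of all identifiers called are given for the main test and for the block that pairs SOL and EDL only. The counts under the other alternatives, here and above, are therefore not a result about the members against all identifiers. DESeq2 called more members: 8 for HIB against SA in SOL, 7 for POST against SA in SOL, 8 and 4 for PRE against SA in SOL and EDL, 1 and 8 for HIB against PRE in SOL and EDL, and 16 and 12 for any state in SOL and EDL. With library totals there were 2 for HIB against SA, 0 for POST against SA and 0 for any state, all in SOL. Totals over the other identifiers gave 2 for HIB against SA and 0 for POST against SA in SOL, and 1 for HIB against PRE in EDL. DESeq2's size factors in edgeR, and no filter, each gave 1 for HIB against PRE in EDL, and no filter gave 1 for PRE against SA in EDL. With only the compared libraries there were 12 for HIB against SA, 0 for POST against SA and 2 for PRE against SA in SOL, and 4 for HIB against PRE in EDL. A replicate block over states gave 0 for any state in SOL. Without POST SOL 1, which neither comparison uses, there were 5 for HIB against SA and 8 for PRE against SA in SOL. Leaving out 1 library gave 0 to 18 for any state in SOL, 0 to 4 for any state in EDL, 0 to 17 for POST against SA in SOL, 1 to 2 for HIB against SA in EDL, 0 to 1 for HIB against PRE in EDL and 0 to 1 for PRE against SA in EDL.

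Values near 0 changed sign. The log2 change of HIB from SA in EDL for the most abundant identifier was -0.0023 with DESeq2 and its size factors and -0.0047 with no filter, and it lay between -0.19 and 0.42 with 1 library left out. The log2 change of PRE from SA in SOL for 101971138 was -0.015 with library totals. With 3 libraries a group, changes of the members had a median SE of 0.32 in SOL and 0.28 in EDL (log2). Changes several SEs in size could still miss the threshold in the main test. That of 101970435 in EDL did (-1.77 ± 0.39, HIB against PRE), though it passed under some alternatives. No size of change is therefore given as detectable.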
